A study of Mus musculus with 38 samples.

Results

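Slc30a10, Slc39a8 and Slc39a14 encode membrane transporters of manganese, and their rows were taken by symbol from the deposited tables of intestinal gene expression, 3 of 21441 genes. Slc30a10, a member of the ZnT (Slc30) family, exports manganese from the cell and sits on the apical membrane of enterocytes and hepatocytes. Slc39a8 (ZIP8) and Slc39a14 (ZIP14), members of the ZIP (Slc39) family, import manganese together with zinc, iron or cadmium. Loss of SLC30A10 or SLC39A14 in humans leads to manganese overload, and loss of SLC39A8 to manganese deficiency. In the intestine such carriers bear on how much manganese is absorbed and how much is returned to the lumen. The active hormone 1,25(OH)2D3 acts through the vitamin D receptor, a nuclear receptor best known in the gut for the control of calcium absorption.

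RNA-seq was made from intestinal epithelium of wild-type C57BL6/J mice of both sexes, all of them vitamin D deficient. The mice were given 10 ng of 1,25(OH)2D3 per g of body weight by intraperitoneal injection, or 0.1 ml of vehicle (propylene glycol with ethanol), and tissue was taken after 4 h. One label field gives their age as 10 to 13.3 weeks and another as 12 to 14 weeks at the injection. Villi and crypts were released with EDTA from the proximal small intestine and separated by filtering, whereas the colon was scraped for its epithelium. Of the 38 libraries, villi gave 7 with vitamin D and 6 with vehicle, crypts gave 6 with each, and colon gave 7 with vitamin D and 6 with vehicle. The sources used here do not say how many mice made up a library; the p-values therefore cover only differences among these libraries, part of which may be technical.

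Values are FPKM, a level per unit of transcript length and of sequencing depth, so genes of the same library may be set side by side. The depth read back from the steps between low values was 13.8 M to 17.5 M reads per library (median 15.8 M). The colonocyte markers summed to 6521 to 15793 FPKM in vitamin D colon and 5162 to 11431 FPKM in vehicle colon. The Paneth cell markers summed to 6447 to 11604 FPKM in vitamin D crypts and 4384 to 13516 FPKM in vehicle crypts, against at most 1500.5 FPKM in any library of villi. Villus enterocyte markers were also present in crypts, at 7600 to 30978 FPKM in vitamin D crypts and 6327 to 52095 FPKM in vehicle crypts; whether they came from villus cells or from cells of the crypt was not tested. In villi the same markers summed to 44646 to 63935 FPKM with vitamin D and 37852 to 59072 FPKM with vehicle. Libraries carry 3 styles of sample name (plain, with a dash, or with a number in front); what the styles stand for is not given, and they are treated here as possible batches. In bulk tissue, fewer cells of a type and less RNA per cell cannot be told apart.

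The 250 bases upstream of the annotated start are shown for Slc30a10 and Slc39a8, because a nuclear receptor, a metal sensor or an oxygen sensor could bind such a region. No promoter entry was available for Slc39a14, so the windows offer no contrast with that gene. RefSeq's promoter table for the GRCm38.p6 build held 3 promoters for 2 of the 3 genes, 1 for Slc30a10 on chr1:185454598-185454847 and 2 for Slc39a8 on chr3:135825029-135825278 and chr3:135825407-135825656, each on the plus strand. Capitals mark matches, on either strand, to a vitamin D receptor half-site, written AGGTCA and also accepted as AGTTCA, with G first as GGGTCA, or with both changes as GGTTCA. They also mark the core of a metal response element, TGCGCNC with its variant form TGCACNC, and the core of a hypoxia response element, ACGTG with its variant form GCGTG.
Slc30a10 promoter: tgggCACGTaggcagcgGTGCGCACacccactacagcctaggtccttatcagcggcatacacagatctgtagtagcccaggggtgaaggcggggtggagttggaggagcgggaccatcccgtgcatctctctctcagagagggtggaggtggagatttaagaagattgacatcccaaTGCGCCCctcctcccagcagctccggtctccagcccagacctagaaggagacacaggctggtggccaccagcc
Slc39a8 upstream promoter: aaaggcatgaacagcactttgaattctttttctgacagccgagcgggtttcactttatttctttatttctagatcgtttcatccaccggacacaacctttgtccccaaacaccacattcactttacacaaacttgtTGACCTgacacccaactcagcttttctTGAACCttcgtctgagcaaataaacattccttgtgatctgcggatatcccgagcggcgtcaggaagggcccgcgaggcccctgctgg
Slc39a8 downstream promoter: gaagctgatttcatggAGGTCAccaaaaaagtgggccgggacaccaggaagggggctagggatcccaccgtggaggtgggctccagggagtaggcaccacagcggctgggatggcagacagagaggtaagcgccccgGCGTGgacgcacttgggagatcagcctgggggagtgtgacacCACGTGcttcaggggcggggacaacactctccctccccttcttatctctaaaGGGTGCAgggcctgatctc

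The Slc30a10 window held no half-site, 3 matches to the metal response core and 1 to the hypoxia core. A pair of those metal matches overlap on opposite strands, 233 and 232 bases before the start, and the third lies 73 bases before it. The upstream Slc39a8 window held 2 half-sites, 114 and 87 bases before its start, and no match to either core. The downstream Slc39a8 window held 1 half-site, 1 metal match and 3 hypoxia matches, of which a pair overlap on opposite strands. None of the 3 windows held 2 half-sites in direct repeat with a 3-base spacer, the arrangement to which the vitamin D receptor binds as a heterodimer. Of all 32851 RefSeq promoter windows of that length, 38.6% held a half-site, 0.0396% such a repeat, 21.4% a metal match and 38.6% a hypoxia match. Among 10618 promoters of tested genes the shares were 34.4% for the half-site, 0.00942% for the repeat, 29.3% for the metal match and 55.7% for the hypoxia match. These letters are a description of the windows and show neither binding nor its absence.

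Slc30a10 rose with vitamin D in all 3 tissues, by 2.82-fold in villi, 4.15-fold in crypts and 7.52-fold in colon on the ratio of the mean FPKM. Slc39a8 also rose in all 3, by 2.5-fold in villi, 3.30-fold in crypts and 2.28-fold in colon. Slc39a14 was not called in any tissue, although it was as abundant as Slc30a10 in the small intestine of treated mice. The treatment itself was seen in Cyp24a1, the hydroxylase that inactivates 1,25(OH)2D3, at 3378 ± 877 FPKM in vitamin D villi and 10.98 ± 25.1 FPKM in vehicle villi (SD, n = 7 and 6). Its lowest vitamin D library, colon replicate 7, stood at 403 FPKM, and its highest vehicle libraries, villi replicate 6 and colon replicate 6, at 62.2 and 64.7 FPKM.

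**Figure D1:**
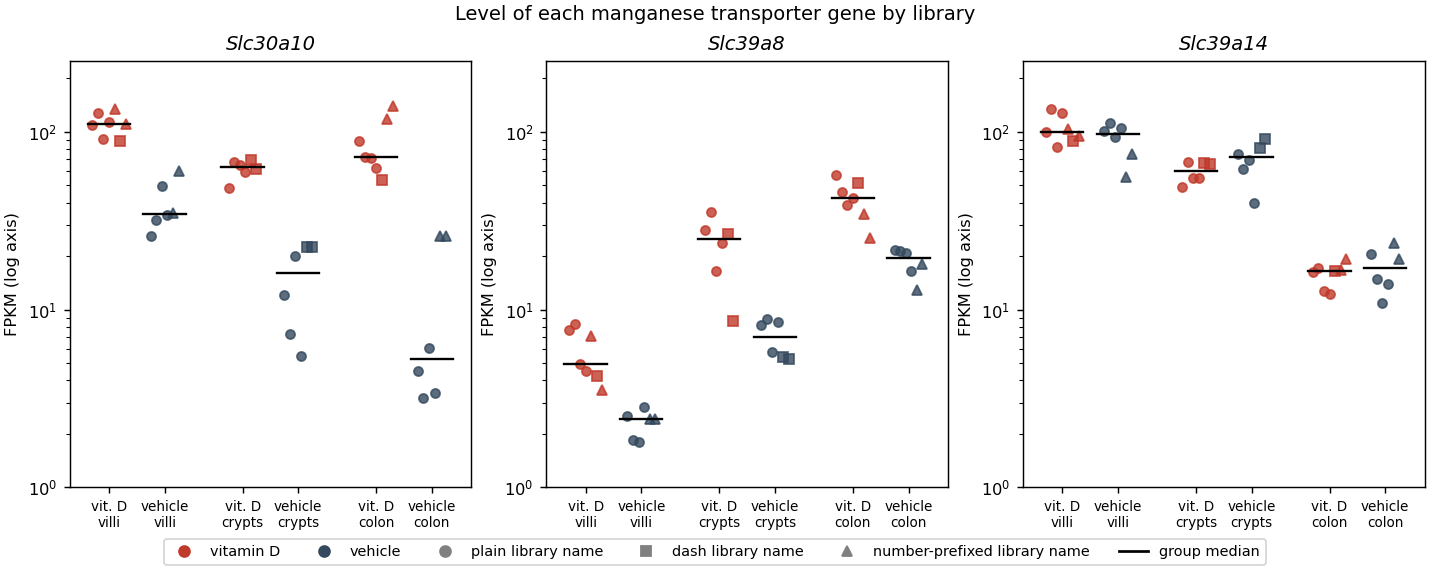
FPKM of Slc30a10, Slc39a8 and Slc39a14 on a log axis, 1 point per library, in vitamin D and vehicle libraries of each tissue; black lines are group medians and point shapes give the style of the sample name. Slc30a10 and Slc39a8 sit higher with vitamin D in each tissue, and Slc39a14 overlaps between treatments; the triangles of vehicle colon, at 25.8 and 25.9 FPKM, stand above the circles in Slc30a10.

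In villi, Slc30a10 lay between 88.4 and 134 FPKM (median 111) in the 7 vitamin D libraries, against 25.8 to 60.0 FPKM (median 34.4) in the 6 vehicle libraries. Every vitamin D library was above every vehicle library. The mean was 110.8 ± 17.0 FPKM with vitamin D and 39.3 ± 12.8 FPKM with vehicle (SD, n = 7 and 6). On the log2(FPKM + 0.5) scale the exporter gene rose by 1.53 ± 0.18 (SE, 95% interval 1.15 to 1.90, limma adjusted p = 0.000268), rank 29 by fold change among 9706 genes tested. In that comparison limma called 2.47% of the genes, 2.17% of them as higher, and 1.75% had no overlap with vitamin D above vehicle.

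In crypts, Slc30a10 ranged from a lowest vitamin D library of 48.5 FPKM to a highest of 69.5 FPKM (median 63.4), whereas the vehicle libraries spread over 5.46 to 22.5 FPKM (median 16.1). The 2 groups did not overlap, and the spread among vehicle libraries, a coefficient of variation of 51.4%, was wider than the 12.2% among vitamin D libraries. The rise was 2.19 ± 0.32 on the log2 scale (95% interval 1.51 to 2.88, limma adjusted p = 0.00260), rank 12 of 10733 genes. Limma called 1.46% of genes in crypts, 157 in number and 444 in the fit blocked on replicate number, with 1.13% higher, 0.335% lower and 1.23% not overlapping above. Among vehicle crypts the highest levels of Slc30a10 were in the libraries with the most enterocyte marker RNA, replicates 5 and 6 at 22.5 and 22.4 FPKM. The lowest was in replicate 4, at 5.46 FPKM, with the least. Replicates 5 and 6 were also the dash-named libraries, with marker sums of 43130 and 52095 FPKM. The plain-named ones had 6327 to 20778 FPKM, so marker content and name style cannot be told apart between these sets. Enterocyte markers themselves summed to a median of 12637 FPKM in vitamin D crypts and 20683 FPKM in vehicle crypts, and none of the 10 was called (median log2 fold change -0.57, 1 of 10 above 0 and 1 with an unadjusted p under 0.05 in limma). With the mean of these markers as a covariate, a fit added after the data were seen, the rise of Slc30a10 in crypts was 2.44 (limma adjusted p = 2.2e-05).

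In colon, Slc30a10 stood at 53.5 to 139 FPKM (median 71.7) in vitamin D libraries and at 3.19 to 25.9 FPKM (median 5.28) in vehicle libraries, again without overlap. The 4 plain-named vehicle libraries were at 4.52, 3.19, 6.05 and 3.39 FPKM. Those with a number in front, replicates 5 and 6, were at 25.8 and 25.9 FPKM. Vitamin D libraries split the same way, with the number-prefixed replicates 6 and 7 at 118 and 139 FPKM and the others between 53.5 and 88.7 FPKM. The exporter gene rose by 3.31 ± 0.48 on the log2 scale (95% interval 2.28 to 4.34, limma adjusted p = 0.00283), rank 3 of 11540 genes. Among the plain-named libraries alone, means of 73.6 FPKM with vitamin D and 4.29 FPKM with vehicle gave a rise of 3.98 (limma adjusted p = 5.5e-05). Colon had the smallest share of called genes, 0.823% in either direction, 0.763% higher and 0.754% not overlapping above.

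The same number-prefixed vehicle colon libraries also held the most RNA of small-intestinal enterocyte markers, 1861 and 3437 FPKM in sum against 379 to 720 FPKM in the plain-named ones. The part of these markers in the level of Slc30a10 was not tested for colon beyond the colonocyte markers, whose mean as a covariate gave a rise of 3.49 (limma adjusted p = 0.000254). Smooth muscle and fibroblast markers reached 4021 FPKM in vitamin D colon replicate 2, against at most 210 FPKM in vehicle colon. It was not the only high library. Acta2, Myh11 and Des each had 2 vitamin D colon libraries above every vehicle library, and Col1a1 and Col3a1 had 3. Without replicate 2 alone the rise of Slc30a10 was 3.34 and that of Slc39a8 was 1.12 (limma adjusted p = 0.00656 and 0.0118). No fit left out all of those libraries, and the part of these markers in either level was not tested.

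Slc39a8 was the least abundant of the 3 genes in villi, with 3.53 to 8.33 FPKM (median 4.94) in vitamin D villi and 1.81 to 2.83 FPKM (median 2.42) in vehicle villi. All 7 vitamin D libraries were above all vehicle libraries. These levels rest on about 197 to 413 reads per vitamin D library and 90.9 to 162 reads per vehicle library, and the vehicle group had the fewest reads of any group and gene here. The importer gene rose by 1.11 ± 0.19 on the log2 scale (95% interval 0.71 to 1.51, limma adjusted p = 0.00431).

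In crypts, Slc39a8 reached 8.66 to 35.4 FPKM (median 25.1) with vitamin D, against 5.26 to 8.85 FPKM (median 7.01) with vehicle. Vitamin D replicate 6, at 8.66 FPKM, fell inside the vehicle range, and the other 5 were above it. That library, named with a dash, also had the lowest Cyp24a1 of its group, at 2516 FPKM. It had the most enterocyte marker RNA too, 30978 FPKM in sum. The part of these or of name style in its Slc39a8 level was not tested. The rise was 1.56 ± 0.29 (95% interval 0.95 to 2.18, limma adjusted p = 0.0133), and 1.81 without replicate 6 (limma adjusted p = 0.000440).

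Colon held the highest levels of Slc39a8, 25.3 to 57.0 FPKM (median 42.7) in vitamin D libraries and 12.8 to 21.6 FPKM (median 19.4) in vehicle libraries, without overlap. The number-prefixed libraries were at the low end in vitamin D colon, at 34.7 and 25.3 FPKM. They were low in vehicle colon as well, at 12.8 and 18.1 FPKM, with 1 plain-named library at 16.5 FPKM between them. The rise was 1.15 ± 0.18 (95% interval 0.77 to 1.53, limma adjusted p = 0.00452), and 1.17 among the plain-named libraries alone (limma adjusted p = 0.00576).

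Slc39a14 had 81.8 to 135 FPKM (median 100.4) in vitamin D villi and 55.9 to 113 FPKM (median 97.3) in vehicle villi. The groups overlapped over most of their range, and the lowest vehicle values, 55.9 and 75.3 FPKM, were those of the number-prefixed libraries. The difference was 0.22 ± 0.17 on the log2 scale (95% interval -0.13 to 0.58, limma adjusted p = 0.665), and 0.09 without vehicle villi replicate 5. In crypts the 6 vitamin D libraries lay between 48.9 and 67.5 FPKM (median 60.5), within the vehicle range of 39.8 to 91.7 FPKM (median 72.2). The crypt difference was -0.19 ± 0.17 (95% interval -0.56 to 0.19, limma adjusted p = 0.648). It was -0.34 without vehicle crypts replicate 4 (limma adjusted p = 0.0918) and -0.10 without vehicle crypts replicate 6. Colon had the lowest levels of this importer gene, 12.2 to 19.3 FPKM (median 16.4) with vitamin D and 10.9 to 23.8 FPKM (median 17.1) with vehicle. The difference there was -0.09 ± 0.17 (95% interval -0.45 to 0.27, limma adjusted p = 0.930). Together the 3 intervals span -0.56 to 0.58 on the log2 scale.

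**Figure D2:**
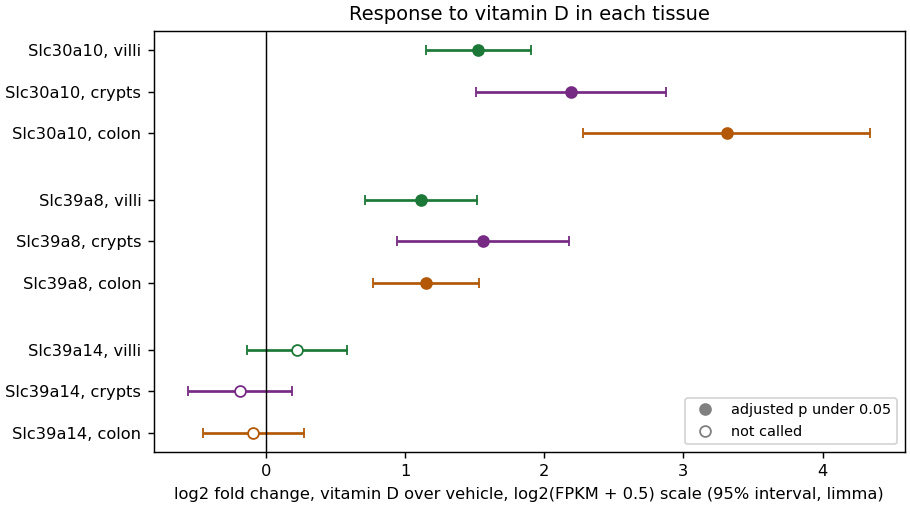
Log2 fold change of vitamin D over vehicle for each gene and tissue on the log2(FPKM + 0.5) scale, with 95% intervals from limma; filled points had an adjusted p under 0.05. The 6 intervals of Slc30a10 and Slc39a8 lie above 0 and the 3 of Slc39a14 include it.

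Whether the responses differed between tissues was tested as a difference of differences in 1 limma fit over all 38 libraries. The fit took all libraries as independent; whether villi, crypts and colon came from the same mice is not stated in the labels, and such sharing was not modelled. The rise of Slc30a10 was 1.79 ± 0.52 smaller in villi than in colon on the log2 scale (villi minus colon -1.79, 95% interval -2.84 to -0.73, limma adjusted p = 0.155), so the difference did not pass. In that contrast 46 of 9311 genes passed, 0.494%. A covariate for name style brought it past the threshold (-1.84, limma adjusted p = 0.00649) as did the plain-named libraries alone (-2.31, limma adjusted p = 0.00573). It also passed without vehicle colon replicate 5 (-2.12, limma adjusted p = 0.0338) or replicate 6 (-2.12, limma adjusted p = 0.0366), the pair with high Slc30a10. In 40 of 44 alternatives it stayed uncalled, with a limma adjusted p of up to 0.331, reached without vehicle colon replicate 2. The other contrasts of Slc30a10 were -0.67 for villi minus crypts (95% interval -1.74 to 0.41, limma adjusted p = 0.744) and -1.12 for crypts minus colon (95% interval -2.20 to -0.05, limma adjusted p = 1.00). In those contrasts limma called 0.0322% and 0.0644% of the genes.

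Slc39a8 gave no called difference between tissues. Its rise was 0.45 smaller in villi than in crypts on the log2 scale (95% interval of the difference -1.11 to 0.21, limma adjusted p = 0.733). Villi minus colon was -0.03 (95% interval -0.68 to 0.62, limma adjusted p = 0.984), and crypts minus colon was 0.42 (95% interval -0.25 to 1.08, limma adjusted p = 1.00). For Slc39a14 the contrasts were 0.41 (villi minus crypts), 0.31 (villi minus colon) and -0.10 (crypts minus colon), with limma adjusted p of 0.728, 0.722 and 1.00.

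The level of each gene along the intestine had its own order, given here from tables that appear to be normalised separately for each tissue. For Slc30a10 the means fell in the order vitamin D villi (110.8 FPKM), vitamin D colon (86.3 FPKM), vitamin D crypts (62.0 FPKM), vehicle villi (39.3 FPKM), vehicle crypts (14.95 FPKM) and vehicle colon (11.5 FPKM). Neighbours in that order overlapped in range, except vehicle villi and vehicle crypts. For Slc39a8 the order was vitamin D colon (42.3 FPKM), vitamin D crypts (23.1 FPKM), vehicle colon (18.5 FPKM), vehicle crypts (7.00 FPKM), vitamin D villi (5.77 FPKM) and vehicle villi (2.31 FPKM). Thus Slc39a8 in treated villi remained near the level of vehicle crypts, with overlapping ranges, and below every vehicle colon library. For Slc39a14 the order ran from vitamin D villi (104.7 FPKM) and vehicle villi (90.7 FPKM) through vehicle crypts (69.8 FPKM) and vitamin D crypts (59.8 FPKM) to vehicle colon (17.3 FPKM) and vitamin D colon (15.8 FPKM). In that order the one pair of neighbours without overlap was vitamin D crypts and vehicle colon.

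Tissue against tissue was compared by the authors among vitamin D libraries only. The direction of their values was read from the FPKM, with which they correlated across genes at r = 0.823, 0.716 and 0.742. Their values were also shifted against the log2 FPKM differences, by a median over genes of -0.46 for crypts over villi, -0.60 for colon over villi and -0.05 for colon over crypts. In the authors' deposited table for crypts over villi, where 61.9% of genes passed, the log2 fold change was -1.33 for Slc30a10 (adjusted p = 2.5e-28), 1.51 for Slc39a8 (6.5e-07) and -1.30 for Slc39a14 (2.0e-21). In the authors' deposited table for colon over villi, where 64.7% of genes passed, it was -1.06 for Slc30a10 (adjusted p = 2.9e-07), 2.18 for Slc39a8 (2.7e-21) and -3.42 for Slc39a14 (4.3e-134). In the authors' deposited table for colon over crypts, where 56.5% passed, it was 0.40 for Slc30a10 (adjusted p = 0.0887), 0.80 for Slc39a8 (0.00804) and -1.99 for Slc39a14 (1.1e-59). Relative to those median shifts, Slc30a10 stood at -0.86, -0.46 and 0.45 in the same order of tables, close to its log2 FPKM differences of -0.83, -0.42 and 0.41. The colon over villi value of Slc30a10 was thus less than a log2 unit once the shift was taken off, and no adjusted p applies to it. Slc39a8 stood at 1.98, 2.78 and 0.85, and Slc39a14 at -0.83, -2.82 and -1.94. With or without the shift, the 2 importer genes had opposite signs in every table, Slc39a8 highest in colon and Slc39a14 highest in villi.

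The balance between the genes within a library was described by log2 ratios of FPKM, without a test. Slc30a10 over Slc39a14 averaged 0.09 ± 0.19 in vitamin D villi and -1.23 ± 0.68 in vehicle villi (SD, n = 7 and 6). In crypts the ratio was 0.05 ± 0.11 with vitamin D and -2.38 ± 0.56 with vehicle (SD, n = 6 each). In treated villi and crypts the exporter and importer genes were thus at nearly the same level in each library, between -0.17 and 0.37 on the log2 scale. In colon the same ratio was 2.39 ± 0.40 with vitamin D and -1.13 ± 1.20 with vehicle, where vehicle libraries spread from -2.23 in a plain-named library to 0.42 in a number-prefixed one.

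Set against Slc39a8, which rose as well, Slc30a10 changed less in balance. Slc30a10 over Slc39a8 averaged 4.32 ± 0.40 in vitamin D villi and 4.05 ± 0.57 in vehicle villi on the log2 scale. In crypts it averaged 1.54 ± 0.76 with vitamin D and 0.93 ± 1.22 with vehicle, and in both tissues the ranges overlapped. In colon the ratio was 1.00 ± 0.82 with vitamin D and -1.26 ± 1.60 with vehicle. There too the ranges overlapped. Every vitamin D colon library had more Slc30a10 than Slc39a8, and so did the number-prefixed vehicle replicates 5 and 6 (1.01 and 0.52), while the 4 plain-named vehicle libraries had less.

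**Figure D3:**
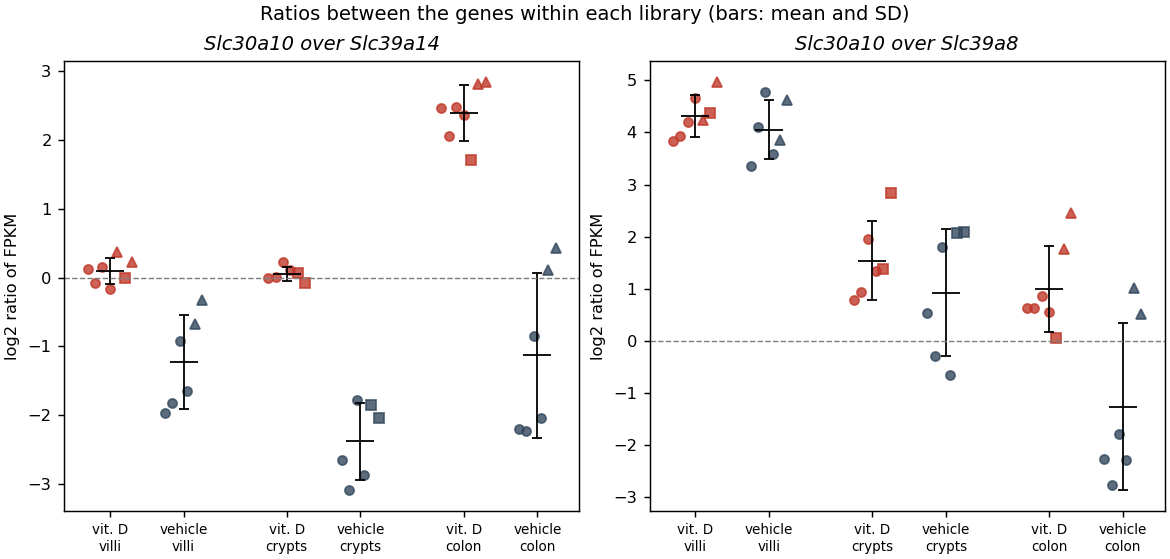
Log2 ratio of FPKM within each library for Slc30a10 over Slc39a14 and for Slc30a10 over Slc39a8; bars give the mean and SD, and squares and triangles mark dash and number-prefixed sample names. Slc30a10 over Slc39a14 lies close to 0 in vitamin D villi and crypts and below 0 in vehicle villi and crypts, while in vehicle colon the plain-named and number-prefixed libraries stand apart.

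Correlations between the genes were computed within each group, since vitamin D and vehicle libraries differ in level. Of 36 relations (the 3 genes with each other and with Cyp24a1, in 6 groups), none passed an adjusted p of 0.05 by the exact permutation test and 6 had an unadjusted p under it. Slc30a10 and Slc39a8 ran against each other in vehicle crypts (r = -0.931, rho = -0.886, n = 6, exact permutation p = 0.0278 and 0.0333, adjusted 0.20 and 0.176). Without the 2 libraries farthest from the median r was -0.999, and with name styles centred it was -0.868. The former was left with replicates 1, 3, 5 and 6. Replicate 1 stood apart there at 12.0 FPKM of Slc30a10, against 20.1 to 22.5 FPKM in the others, so that r rests on replicate 1. The libraries with high Slc30a10 and low Slc39a8 there were replicates 3, 5 and 6. Slc30a10 and Slc39a14 rose and fell together among crypt libraries, with r = 0.838 with vitamin D and 0.865 with vehicle (rho = 0.886 in each, n = 6, exact permutation p = 0.0208 and 0.0111, adjusted 0.20). Without the 2 farthest libraries r was 0.532 and 0.408. Vehicle colon is among the 36 relations, but its pooled r is not read here, because the libraries fall into 2 sets by name style and neither holds 6 libraries. These sets stood apart in Slc30a10, at 3.19 to 6.05 and 25.8 to 25.9 FPKM. Every other group also mixes name styles, with 4 plain-named libraries in each. A difference between styles may therefore enter any r given here. With 6 libraries, the smallest adjusted p that a lone relation could reach in this family is 0.050 for r and 0.10 for rho, so groups of that size could not pass singly.

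Among vitamin D libraries r between Slc39a8 and Cyp24a1 was positive in each tissue, and none of these relations passed adjustment. Number-prefixed replicate 7 was lowest in both genes in villi (3.53 FPKM of Slc39a8 and 1898 FPKM of Cyp24a1) and in colon (25.3 and 403 FPKM). In crypts r was 0.928 (rho = 0.886, n = 6, exact permutation p = 0.0139, adjusted 0.20), and 0.899 without the 2 farthest libraries. In villi r was 0.737 (rho = 0.75, n = 7, exact permutation p = 0.0438, adjusted 0.263) and 0.532 without them. In colon r was 0.833 (rho = 0.821, n = 7, exact permutation p = 0.0256, adjusted 0.20) but 0.194 without them, so the colon relation rests on those libraries. Slc30a10 showed r of 0.235, 0.204 and -0.629 with Cyp24a1 in vitamin D villi, crypts and colon (exact permutation p = 0.639, 0.644 and 0.116, n = 7, 6 and 7). In vitamin D colon the number-prefixed libraries had the highest Slc30a10, and the part of name style in that r was not tested. Whether Slc39a8 and Slc30a10 differ in their relation to Cyp24a1 was not tested.

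**Figure D4:**
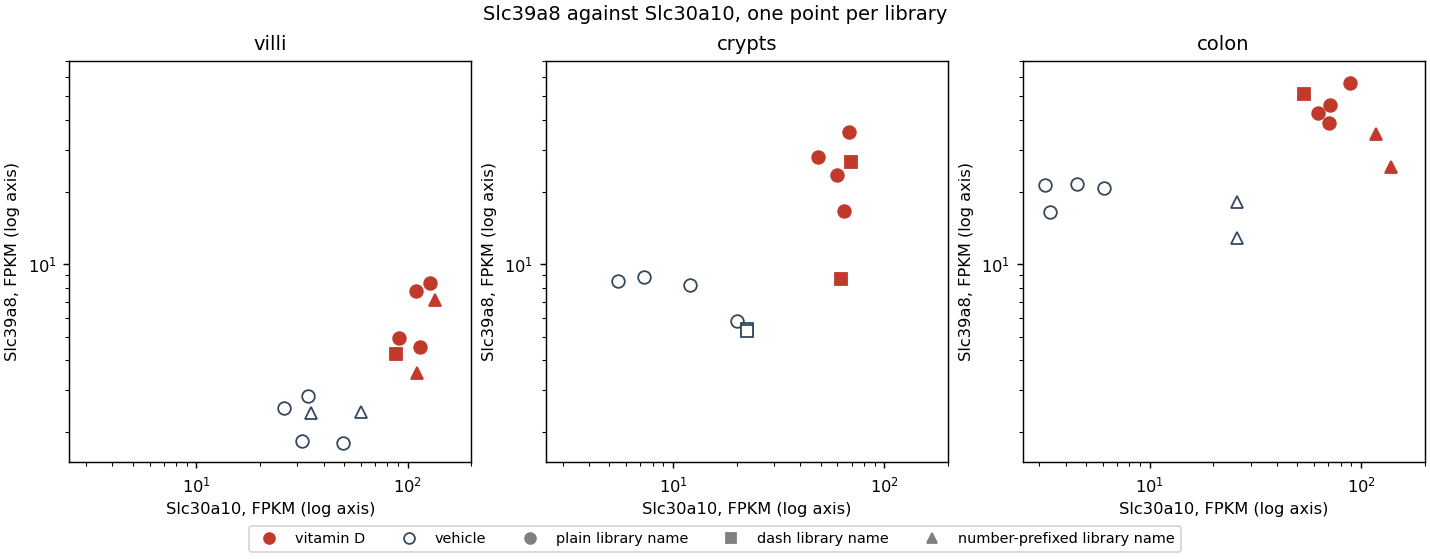
Slc39a8 against Slc30a10 in FPKM on log axes, 1 point per library and 1 panel per tissue; filled points are vitamin D and open points vehicle libraries, and shapes give the style of the sample name. In vehicle crypts the points fall from upper left to lower right (r = -0.931), and in colon the triangles lie to the right of and mostly below the circles in both treatments.

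With the epithelial marker mean (enterocyte markers in villi and crypts, colonocyte markers in colon), 18 further relations were computed after the data were seen. In vehicle crypts Slc39a14 followed the markers closely (r = 0.980, rho = 1.00, n = 6, exact permutation p = 0.00139, adjusted 0.0250) and this also held without the 2 farthest libraries (r = 0.904). Slc30a10 had r = 0.899 there (rho = 0.886, exact permutation p = 0.00556, adjusted 0.050, n = 6), at the threshold but not under it. Slc39a8 had r = -0.775 (rho = -0.886, exact permutation p = 0.0417, adjusted 0.244, n = 6). Without the 2 farthest libraries these r were 0.676 for Slc30a10 and -0.430 for Slc39a8. Outside vehicle crypts no r had an exact permutation adjusted p below 0.244. Name style may enter these r as well. With the marker mean as a covariate, the crypt value of Slc39a8 was 1.39 (limma adjusted p = 0.00684), against 1.56 without it, and that of Slc39a14 was -0.04 (limma adjusted p = 0.880), against -0.19 without it. Whether these markers stand for villus material in the crypt libraries was not tested.

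The genes most like each transporter were sought over all 38 libraries, centred on the mean of each tissue, among 9310 genes; treatment, depth and tissue preparation are shared by these points, so r is a description. Slc30a10 was most like Atp2b1, the basolateral calcium pump (r = 0.918), then Kbtbd11 (0.878), H2-Bl (0.872), 2200002K05Rik (0.863) and Ttc22 (0.846). Cyp24a1 came at place 8 (0.827), and Slc39a8 at place 110 (0.634). Slc39a8 was most like the keratin gene Krt7 (r = 0.914), then Ttc39b (0.90), the arginyltransferase gene Ate1 (0.883), Lrrc26 (0.882) and the Polycomb gene Suz12 (0.868), with Cyp24a1 at place 7 (0.845). Krt7 averaged 37.5 FPKM in vitamin D villi and 21.0 FPKM in vehicle villi, 138.8 and 47.4 FPKM in crypts, and 227 and 96.1 FPKM in colon. Slc39a14 was most like the glucose transporter gene Slc5a1 (r = 0.792), the maltase gene Mgam (0.772), the amino acid transporter gene Slc43a2 (0.766), Tpcn1 (0.762) and Entpd7 (0.756).

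Centred on tissue and treatment, the lists of Slc30a10 and Slc39a8 were largely other genes, 0 and 1 of 5 shared with those above. Slc30a10 was then most like Gm10768 (r = 0.854), the cholesterol transporter gene Npc1l1 (0.852), the monoacylglycerol acyltransferase gene Mogat2 (0.836), the trehalase gene Treh (0.833) and Mttp (0.830), whose product loads lipoproteins. Slc39a8 was most like Zfp207 (0.781), Kcnk1 (0.755), the glycyl-tRNA synthetase gene Gars (0.746), Suz12 (0.714) and Phf20 (0.703). Slc39a14 remained most like Slc43a2 (0.809), Slc5a1 (0.806), Mgam (0.793) and Entpd7 (0.782), with B4galt6 (0.777) as the fifth. With treatment removed, r between Slc30a10 and Slc39a14 was 0.515 and that between Slc30a10 and Slc39a8 was -0.334.

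Other zinc exporters of the Slc30 family responded in part. In villi 2 of 7 other members tested were called higher (against 2.17% of all genes), and 4 of 7 had an unadjusted p under 0.05 in limma. The median log2 fold change of the 7 was 0.28, against -0.01 over all genes tested. Slc30a2 was not called in villi, at 1.03 ± 0.35 on the log2 scale (limma adjusted p = 0.192). Slc30a1, which exports zinc across the plasma membrane, averaged 20.1 ± 6.26 FPKM in vitamin D villi and 7.22 ± 1.08 FPKM in vehicle villi (1.37 ± 0.18, limma adjusted p = 0.000589). Slc30a5, a transporter of the secretory pathway, averaged 68.9 ± 4.90 and 51.0 ± 3.85 FPKM (0.43 ± 0.07, limma adjusted p = 0.00401), and its call was lost among the plain-named libraries alone (0.0514). In crypts, where 1.13% of all genes were called higher, Slc30a1 was the 1 of 7 called. It averaged 18.4 ± 3.27 FPKM with vitamin D and 6.67 ± 0.93 FPKM with vehicle (1.39 ± 0.13, limma adjusted p = 6.4e-05). Before adjustment 5 of 7 had a p under 0.05 in limma in crypts. Among them Slc30a4 was lower (-0.72 ± 0.24, limma adjusted p = 0.175) and the rest were higher. In colon 0 of 6 passed limma's adjusted threshold, against 0.763% called higher over all genes, and 2 had an unadjusted p under 0.05. There Slc30a1 averaged 14.3 ± 2.44 FPKM with vitamin D and 11.4 ± 2.62 FPKM with vehicle (limma adjusted p = 0.589). Apart from Slc30a10, the most abundant members in colon, Slc30a5 and Slc30a4, stood at 31.8 and 23.9 FPKM with vitamin D and 27.4 and 30.4 FPKM with vehicle.

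Among the other ZIP importers, 0 of 7 tested passed limma's adjusted threshold in villi, 1 of 10 in crypts and 0 of 10 in colon (1, 1 and 4 with an unadjusted p under 0.05). Over all genes tested, 2.47%, 1.46% and 0.823% passed, so the ZIP counts were too small to read against that background. The median log2 fold changes were 0.01, 0.04 and -0.02. The called gene, Slc39a10 in crypts, averaged 3.52 ± 0.50 FPKM with vitamin D and 2.26 ± 0.34 FPKM with vehicle (0.54 ± 0.12, limma adjusted p = 0.0374), and 12 of 27 alternatives ended that call (limma adjusted p up to 0.268). Slc39a4, the zinc importer of the apical membrane, was the most abundant of the family with 189 ± 49.2 FPKM in vitamin D villi and 143 ± 19.1 FPKM in vehicle villi (limma adjusted p = 0.277). In colon Slc39a4 averaged 258 ± 33.1 FPKM with vitamin D and 177 ± 35.3 FPKM with vehicle (0.55 ± 0.13, limma adjusted p = 0.0825). Slc39a5, a basolateral zinc importer, averaged 104 ± 13.0 and 109.6 ± 9.88 FPKM in villi, and 100.4 ± 22.3 and 118 ± 23.2 FPKM in crypts, with vitamin D and vehicle in that order. Slc39a8 was therefore the one of the tested ZIP genes called as higher in every tissue.

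**Figure D5:**
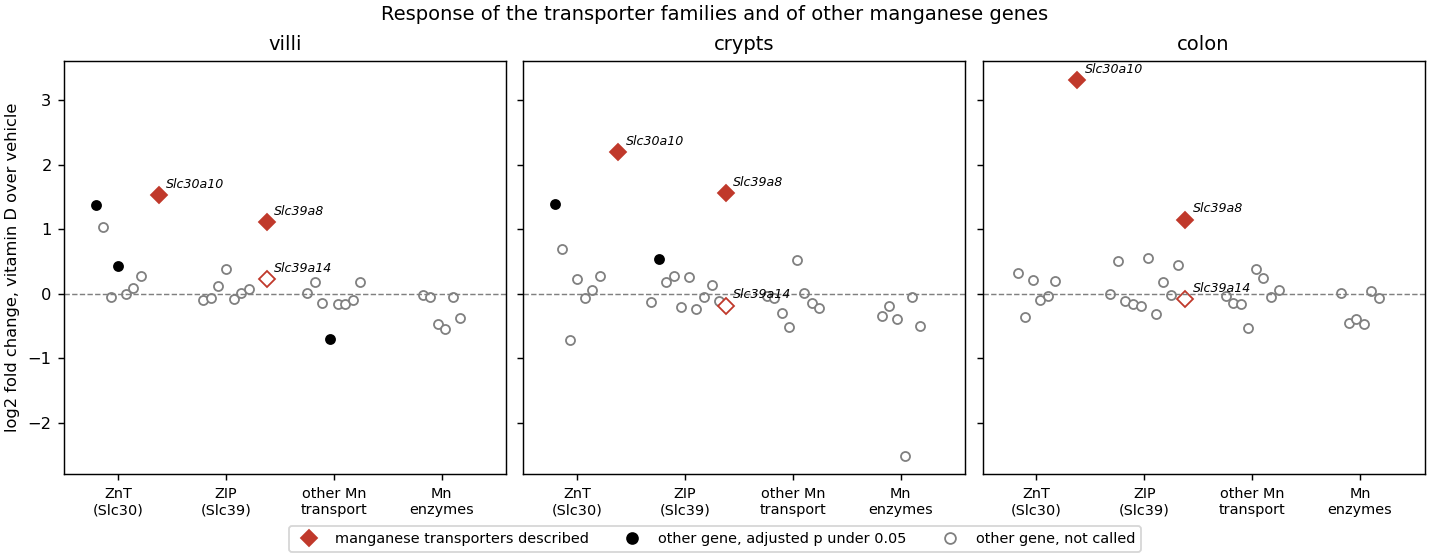
Log2 fold change of vitamin D over vehicle in each tissue for other members of the ZnT and ZIP families, other manganese transport genes and manganese-dependent enzymes (circles, filled where the adjusted p was under 0.05), beside the 3 manganese transporters (diamonds). Slc30a10 and Slc39a8 lie above the other members of their families in each tissue, and the lowest open circle, at -2.51 in crypts, is Pck1.

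Of 8 further genes of manganese transport that were tested, 1 was called in villi and 0 in crypts and colon by limma (unadjusted p under 0.05 for 1, 1 and 0). Over all genes tested, limma called 2.47%, 1.46% and 0.823%, so counts out of 8 were too small to read against that background. The called gene was Slc11a2, the apical importer DMT1, which carries iron and manganese. It fell to 28.0 ± 3.73 FPKM in vitamin D villi, against 47.8 ± 18.1 FPKM in vehicle villi (-0.70 ± 0.17, limma adjusted p = 0.0483; 0.299% of genes were called lower in villi), and 15 of 30 alternatives ended the call (limma adjusted p up to 0.340). In crypts Slc11a2 averaged 23.2 ± 4.87 FPKM with vitamin D and 33.2 ± 5.87 FPKM with vehicle (-0.52 ± 0.16, limma adjusted p = 0.140). Its colon means were 13.4 ± 5.33 and 19.8 ± 8.52 FPKM (-0.53 ± 0.27, limma adjusted p = 0.678). Slc40a1, the basolateral exporter ferroportin, averaged 84.2 ± 40.4 FPKM in vitamin D villi and 86.0 ± 17.3 FPKM in vehicle villi, 99.8 and 72.5 FPKM in crypts and 145 and 115 FPKM in colon (limma adjusted p = 0.891, 0.369 and 0.702). Tfrc, the transferrin receptor gene, averaged 92.3 and 92.9 FPKM in vitamin D and vehicle crypts, and 61.0 and 49.7 FPKM in vitamin D and vehicle colon.

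Enzymes that use manganese gave no called gene among 6 tested in each tissue by limma, with 2, 2 and 3 at an unadjusted p under 0.05 in villi, crypts and colon. Over all genes tested, limma called 2.47%, 1.46% and 0.823%, so a count out of 6 was too small to read against that background. The median log2 fold changes of the enzymes were -0.22, -0.37 and -0.23, against -0.01, -0.01 and 0.00 over all genes tested. Arg2, a mitochondrial arginase, averaged 368 ± 64.6 FPKM in vitamin D villi and 371 ± 44.4 FPKM in vehicle villi, and 292 ± 94.3 and 382 ± 158 FPKM in crypts. Xpnpep1, an aminopeptidase, averaged 191 ± 24.1 FPKM in vitamin D villi and 250 ± 38.0 FPKM in vehicle villi (-0.38 ± 0.11, limma adjusted p = 0.104). In colon Glul, glutamine synthetase, averaged 170 ± 21.5 FPKM with vitamin D and 227 ± 47.4 FPKM with vehicle (limma adjusted p = 0.338). Pck1, the gluconeogenic enzyme, averaged 68.6 ± 13.4 FPKM with vitamin D and 96.1 ± 24.9 FPKM with vehicle in colon (limma adjusted p = 0.338), and 12.6 ± 12.6 and 128 ± 146 FPKM in crypts (-2.51 ± 1.11, limma adjusted p = 0.307).

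Genes of metal and oxygen sensing, whose motifs were searched above, gave 1 of 10 called in villi, 0 of 10 in crypts and 1 of 10 in colon (unadjusted p under 0.05 for 2, 1 and 2). Over all genes tested, limma called 2.47%, 1.46% and 0.823%, and 0.299% as lower in villi. Counts out of 10 were too small to read against those shares. Mt2, a metallothionein that binds zinc and copper, fell to 22.7 ± 12.8 FPKM in vitamin D villi, against 83.3 ± 42.6 FPKM in vehicle villi (-1.93 ± 0.43, limma adjusted p = 0.0263), and 9 of 30 alternatives ended the call (limma adjusted p up to 0.287). Mt1 averaged 171 ± 87.1 and 299 ± 112 FPKM there (limma adjusted p = 0.227). In crypts Mt1 averaged 348 ± 209 FPKM with vitamin D and 386 ± 87.8 FPKM with vehicle, and Mt2 averaged 80.4 ± 68.0 and 143 ± 55.7 FPKM (limma adjusted p = 0.683 and 0.327). Hif1a, the oxygen-regulated factor, fell to 17.0 ± 3.39 FPKM in vitamin D colon, against 26.6 ± 3.79 FPKM in vehicle colon (-0.64 ± 0.13, limma adjusted p = 0.0291; 0.0607% of genes were called lower in colon), and 12 of 30 alternatives ended the call (limma adjusted p up to 0.189). Mtf1, the metal-responsive factor, stood at 5.11 and 5.87 FPKM in vitamin D and vehicle villi and was not called in any tissue.

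Known targets of 1,25(OH)2D3 rose beside Slc30a10 and Slc39a8. Of the receptor and target genes tested, 3 of 6 were called higher in villi, 3 of 5 in crypts and 3 of 6 in colon. Over all genes the shares called higher were 2.17%, 1.13% and 0.763%. The list was made of known targets and holds Cyp24a1, called in each tissue, so these counts describe the treatment and do not test the list. Atp2b1 was at 111 and 43.0 FPKM in vitamin D and vehicle villi, 89.1 and 30.7 FPKM in crypts, and 153 and 55.2 FPKM in colon (1.33, 1.56 and 1.50 on the log2 scale, limma adjusted p = 3.4e-05, 0.000246 and 0.000523). S100g, the calcium buffer calbindin-D9k, rose by 1.36 in villi and 3.38 in crypts (limma adjusted p = 0.0141 and 0.000911), and averaged 565 ± 244 and 223 ± 144 FPKM in vitamin D and vehicle colon (limma adjusted p = 0.131). With the replicate number as a block its villus call was lost (limma adjusted p = 0.0726). Trpv6, the apical calcium channel, averaged 29.9 ± 16.4 FPKM in vitamin D colon and 2.43 ± 2.15 FPKM in vehicle colon (3.53 ± 0.46, limma adjusted p = 0.00142; 0.0515 among the plain-named libraries alone). On the same scale Slc30a10 rose by 3.31 in colon; differences between genes were not tested.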

How the data were processed

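The authors deposited FPKM values for each tissue. Their own comparisons were deposited as a log2 fold change with its standard error, a test score, p-values and a mean signal per gene, per the file headers. The submitters' processing notes name kallisto 0.45.0, DESeq 1.28.1, DESeq2 and the build mm9, with no role for each. Sequences are given on the build of RefSeq's table, GRCm38.p6, and no other coordinates are printed. Whole reads were recovered from FPKM steps only to give depth and the read numbers of Slc39a8. Each library was scaled so that most low values came out whole. After that, 78.0% to 91.6% of values under 30 reads lay within 0.05 of a whole number, which is no independent check.

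Groups came from the sample titles. A gene was tested in a tissue if 6 libraries or more had at least 1 FPKM. Values were taken as log2(FPKM + 0.5), which understates changes of low genes, and fitted in R 4.3.3 with limma 3.58.1 (lmFit, eBayes with trend). Benjamini-Hochberg adjustment ran across every gene tested, with a threshold of 0.05. Correlations had two-sided exact permutation tests (Python 3.11.15, scipy 1.17.1). The fit was tested on simulated data.

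The pairing was judged from deviations of same-numbered libraries, by the numbers in the titles. All pairs were above 0.1 in villi (r 0.102 to 0.465) and crypts (0.119 to 0.545), and 3 of 6 in colon. Numbers may thus mark pairs in villi and crypts, but pairs 1 and 5 of each were not closest matches in either direction. Same-numbered libraries also often share a name style, which cannot be told apart from pairing. The main fits are not blocked, and a blocked value is printed where it moved a call or count. Alternatives were other pseudocounts, filters and scalings, the replicate block, name style, limma settings, the authors' table and each library left out. Covariates for markers and for the Xist and Ddx3y pattern were added after seeing the data.

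Genes named are the transporters, Cyp24a1, called members of 6 lists, abundant uncalled members, and the 5 genes most like each transporter. Markers of 11 cell types were summed, Jchain and Adgre1 under older symbols; Pc, Olfm4, Defa24 and Cd68 were not analysed here. Members and lists were chosen with earlier results of these data known.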

Additional observations from a re-analysis of the deposited data

How the results depend on the processing

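The calls of Slc30a10 and Slc39a8 kept their direction and their side of the threshold under all alternatives in all 3 tissues, with limma adjusted p of at most 0.0135 and 0.0401; Slc39a8 has no value in villi under the filter of 5 FPKM. Slc39a14 was called under none, with values of 0.09 to 0.29 in villi and -0.34 to -0.04 in crypts over all alternatives, and its colon value of -0.09 ranged from -0.21 to 0.0108 when 1 library was left out (0.0108 without vehicle replicate 5). With the replicate block the rise of Slc30a10 was 1.52 in villi, 2.19 in crypts and 3.19 in colon, and no call of the 3 genes changed. Blocking by title raised the limma adjusted p in villi to 0.0102 for Slc30a10 and 0.0116 for Slc39a8, from 0.000268 and 0.00431. In crypts these were 0.00615 and 0.00465 with the block, against 0.00260 and 0.0133 without it. Counts of called genes moved more. In villi 240 genes became 97 in plain-named libraries and 436 in the authors' deposited table, with 176 to 223 when 1 library was left out. In crypts 157 became 444 with the replicate block by either numbering, 391 with name style, 84 in plain-named libraries, 1253 with array weights and 550 in the authors' deposited table. Leaving out 1 crypt library gave 107 to 1065, with 1065 without vehicle replicate 4. The added covariates gave 272 (Xist and Ddx3y pattern) and 403 (epithelial markers). In colon 95 became 147 with the replicate block by title, 176 with array weights and 246 in the authors' deposited table, with 66 to 141 when 1 library was left out. For these counts the cause was not tested, beyond fewer libraries in the plain-named fits.

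For the difference of response between villi and colon, Slc30a10 gave -1.84 with name style, -2.31 in plain-named libraries and -2.12 to -1.55 when 1 library was left out. It stayed uncalled in 40 of 44 alternatives. Slc39a8 turned from -0.03 to 0.0722 with a pseudocount of 0.1, 0.0775 with name style, 0.12 in plain-named libraries and -0.15 to 0.0654 when 1 library was left out. For crypts minus colon Slc39a14 ranged from -0.25 to 0.0219, the highest without vehicle colon replicate 3. No correlation between the 3 genes passed under any setting that had a test, although groups of 6 could not pass singly, and several turned sign. The vehicle colon values below, on 6 libraries of 2 name styles or on 4 libraries, are listed and not read as relations. On FPKM as deposited, r in vitamin D crypts was 0.0330 for Slc30a10 with Slc39a8 and 0.0176 for Slc39a8 with Slc39a14. With name styles centred (styles with 1 library in a group left out), r for Slc30a10 with Slc39a8 was 0.197 in vitamin D crypts, 0.321 in vitamin D colon and 0.251 in vehicle colon. It was 0.272 in vehicle villi and -0.317 in vehicle colon for Slc30a10 with Slc39a14. For Slc39a8 with Slc39a14 it was 0.0869 in vehicle villi, 0.282 in vitamin D crypts and 0.322 in vitamin D colon. Without the 2 farthest libraries, r for Slc30a10 with Slc39a8 was 0.0065 in vehicle villi, 0.420 in vitamin D crypts, 0.258 in vitamin D colon and 0.368 in vehicle colon. It was -0.333 in vehicle colon for Slc30a10 with Slc39a14, and 0.757 in vehicle villi, 0.468 in vitamin D crypts and 0.190 in vitamin D colon for Slc39a8 with Slc39a14. Depth limits Slc39a8 most, at 90.9 to 162 reads in vehicle villi.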
